A study of Mus musculus with 7 samples.

Results

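The 10 genes described here encode E2F transcription factors, the pocket proteins that bind them, and the transcription factors B-MYB and FOXM1 of the later cell cycle. They are E2f1, E2f2, E2f3, E2f7, E2f8, Rb1, Rbl1, Rbl2, Mybl2 and Foxm1, taken by name and looked up by Ensembl identifier. All 10 are among the 15531 genes taken here to have entered the combined comparison of the study. Of the 10, 5 (E2f7, E2f8, Rbl1, Mybl2 and Foxm1) were called differentially expressed by the authors. RNA was sequenced from 7 independent primary mouse embryonic fibroblast (MEF) lines, which were derived at embryonic day 13.5 and harvested at passage 4, 10 hours after the plates had become confluent. Df/+Bl6 MEFs (4 lines) carry a 4.3 Mb deletion (Df) of region 4E2 on the chromosome 4 inherited from 129S5/SvEvBrd, and an intact C57BL/6J homologue. +129/+Bl6 MEFs (3 lines) are the controls and have both homologues intact. The protocol for the lines names crosses of Df/Dp male chimeras with C57BL/6J mice. The authors' methods separately name +129/+Bl6 crosses as the source of controls, so whether both genotypes came from the same crosses is not certain. All lines are hybrids of the same strains, and no litter or batch is given for them.

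E2F factors bind DNA at the promoters of genes needed for DNA replication. E2F1, E2F2 and E2F3 are the activators, which pair with a DP partner, while E2F7 and E2F8 are atypical members that bind DNA without DP and repress. The pocket proteins RB1, RBL1 (p107) and RBL2 (p130) hold E2F factors in check in resting cells until cyclin-dependent kinases phosphorylate them. RBL1 and RBL2 are also part of the DREAM complex, in which they join a core of LIN proteins called MuvB to silence cell cycle genes. When cells enter the cycle, MuvB leaves the pocket protein, binds B-MYB (the product of Mybl2) and recruits FOXM1 to the promoters of mitotic genes. Many of these promoters hold a short element named CHR, to which LIN54 binds.

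The promoters of the members are shown first, because the E2F genes, Rbl1 and Mybl2 are themselves known targets of E2F. RefSeq windows from 250 bases before to 50 bases after a gene start (GRCm38.p6) were matched by symbol for 8 of the 10 members, which have 10 windows in all. Rb1 and Foxm1 were not matched. The E2F site was searched in 4 spellings of 8 letters, TTTCCCGC, TTTGGCGC, TTTCGCGC and TTTGCCGC, and the CHR as TTTGAA or TTCGAA, each on both strands. The shorter core GCGGGA, which overlaps the first spelling, was searched after the Mybl2 window had been read. The lines below give 80 bases before the start for each of 4 called members, and for E2f3 as an activator that was not called, with matches in capitals. For E2f7 the stretch lies further from the start, from position -230 to -151, and the others end at position -1, the last base before the start. The start is that of the RefSeq window. For E2f8 and Mybl2 it lies inside the gene span given further below, and so do their stretches.
E2f7: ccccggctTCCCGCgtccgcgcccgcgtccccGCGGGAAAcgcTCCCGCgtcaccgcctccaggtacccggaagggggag
E2f8: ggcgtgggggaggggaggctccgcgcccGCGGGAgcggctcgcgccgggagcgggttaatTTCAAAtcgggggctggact
Rbl1: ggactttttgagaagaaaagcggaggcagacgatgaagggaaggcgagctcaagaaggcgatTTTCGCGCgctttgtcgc
Mybl2: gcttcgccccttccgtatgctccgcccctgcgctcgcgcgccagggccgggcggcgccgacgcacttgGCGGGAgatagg
E2f3: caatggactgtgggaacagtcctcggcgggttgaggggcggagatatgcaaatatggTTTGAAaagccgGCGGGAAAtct

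The capitals of E2f7 (chr10:110745209-110745288, plus strand) are the 8-letter site, written GCGGGAAA on this strand, between 2 further cores TCCCGC. In E2f8 (chr7:48881597-48881676, minus strand) they are the core, 52 bases before the start, and the CHR, written TTCAAA on this strand, 20 bases before it. In Rbl1 (chr2:157204535-157204614, minus strand) they are the 8-letter site TTTCGCGC, 18 bases before the start. In Mybl2 (chr2:163054555-163054634, plus strand) they are the core, 12 bases before the start. In E2f3 (chr13:29986064-29986143, minus strand) they are a CHR followed by the 8-letter site GCGGGAAA, which begins 11 bases before the start. Of the 8 members with a window, 4 held an 8-letter site (E2f2, E2f3, E2f7 and Rbl1), compared with 2.60% of the 27025 genes in the RefSeq table. The core was in 5 of the 8 and the CHR in 4 of the 8, compared with 22.05% and 21.7% of all genes. E2f1 has a window but held no match of any kind. Both called and uncalled members held matches, so the letters did not separate the groups, and a match is a run of letters that was not tested for binding.

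The comparison asks which genes have another expression level in MEFs that lack one copy of the 4E2 interval. The authors' deposited tables hold mean normalized counts per genotype for the genes past an FDR of 0.05 (DESeq), and such genes are termed called. They comprise 8.67% of the genes tested, with 5.13% called as higher in Df/+Bl6 and 3.54% as lower. The deposited values per sample have no column names and were not assigned to lines, which leaves their depth unknown. No SD, standard error or new test is given, and whether the lines of both genotypes overlap was not examined. The deletion itself was visible in 5 genes of the interval (Errfi1, Park7, Vamp3, Rpl22 and Acot7), whose 129S5 allele had a Df/+Bl6 mean between 0.278% and 2.52% of the control mean. Their combined log2 ratios lay between -1.33 and -0.81. The C57BL/6J allele, intact in Df/+Bl6, was also called as lower for 3 of them. Its Df/+Bl6 mean was 43.8% of the control mean for Park7, 57.3% for Acot7 and 65.4% for Vamp3. For Errfi1 and Rpl22 this allele was not called. All 11 fibroblast markers looked up entered the comparison, and of these Fn1 was called, with a log2 ratio of -0.69.

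Expression of 5 of the 10 members was higher in Df/+Bl6 MEFs (50%, against 5.13% of all genes), and no member was called as lower. The log2 ratios of the 5, Df/+Bl6 over +129/+Bl6, ran from 0.91 to 1.35 with a median of 0.96, or from 1.88-fold to 2.55-fold. The median of the 796 genes called as higher was 0.80. Ratios of 1 or more were those of 2 members, E2f7 and Mybl2, and 1.45% of all genes were called as higher with a ratio of that size. By role, both atypical E2F genes and both mitotic transcription factor genes were called, while 1 of the 3 pocket protein genes and 0 of the 3 activator E2F genes were called. The members were chosen with earlier results of these data known, so the count describes these genes and no others.

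**Figure D1:**
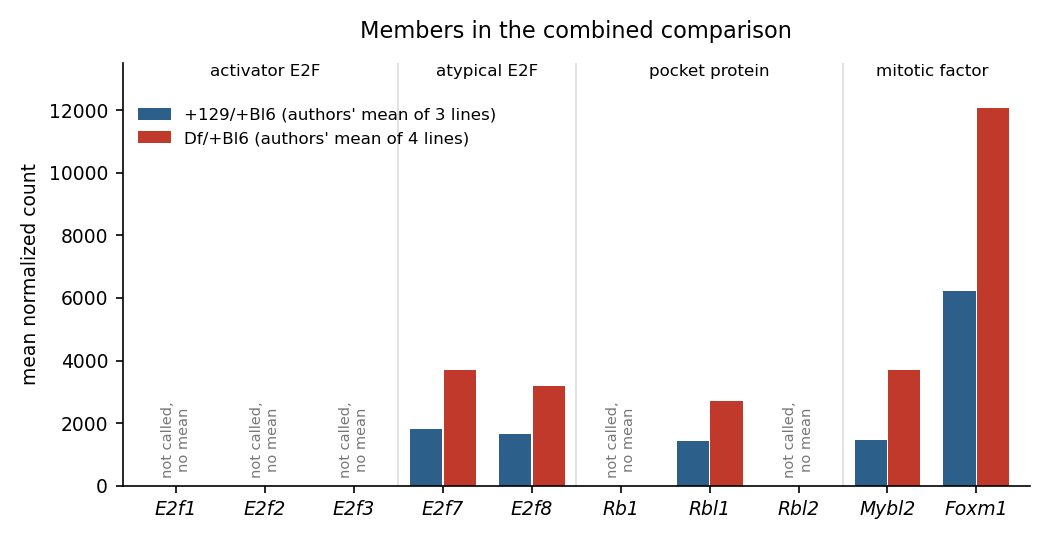
Authors' mean normalized counts (y axis) of each member in +129/+Bl6 (blue bars, 3 lines) and Df/+Bl6 MEFs (red bars, 4 lines), combined comparison, with members grouped by role. The 5 called members all have the taller bar in Df/+Bl6, Foxm1 has the highest means, and no mean is shown for the 5 members that were not called.

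The atypical E2F genes rose to a similar extent. E2f7 (ENSMUSG00000020185) lies on chromosome 10 at 110745439 to 110787384 of GRCm38. Its authors' mean was 1796 in +129/+Bl6 and 3701 in Df/+Bl6 MEFs, a 2.06-fold difference and a log2 ratio of 1.04. E2f8 (ENSMUSG00000046179) lies on chromosome 7 at 48866429 to 48882073. It went from 1645 to 3180, a log2 ratio of 0.95. The proteins of this pair can bind each other and act on the same promoters.

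None of the activators was called. E2f1 (chromosome 2), E2f2 (chromosome 4) and E2f3 (chromosome 13) were tested, but the tables list called genes alone and give no mean for them. E2f2 is the single member on the chromosome that carries the deletion, and it ends 14.7 Mb before Errfi1, a gene near one end of the deleted interval. A gene that was not called is not thereby unchanged. Among the 527 called genes with a mean over all lines between 2170 (Rbl1) and 9562 (Foxm1), the smallest log2 ratio in either direction was 0.47 in size. Smaller differences were thus not called in that range of levels. That range is set by called members, and whether the activators lie within it is not known.

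Of the pocket protein genes, Rbl1 (ENSMUSG00000027641, chromosome 2 at 157145893 to 157204534) was called. Its mean was 1442 in +129/+Bl6 and 2715 in Df/+Bl6 MEFs, with a log2 ratio of 0.91, the smallest of the 5. Rbl1 is the pocket protein gene whose transcript is known to be made mostly in cycling cells, whereas RBL2 is the form of resting cells. Rbl2 (chromosome 8) and Rb1 (chromosome 14) were tested and not called.

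Among the 5 called members, the largest ratio and the highest level were those of the transcription factors of the later cell cycle. Mybl2 (ENSMUSG00000017861, chromosome 2 at 163054327 to 163084688) went from 1446 in +129/+Bl6 to 3691 in Df/+Bl6 MEFs, a 2.55-fold difference and a log2 ratio of 1.35. Its ratio was above that of 91.7% of the 796 genes called as higher, ranking 66. Foxm1 (ENSMUSG00000001517, chromosome 6 at 128362994 to 128375886) went from 6212 to 12074, a log2 ratio of 0.96. The other 4 called members, Foxm1 included, were above 62.7% (Rbl1) to 75.4% (E2f7) of the genes called as higher. In the plot of ratio by level, Mybl2 stands above E2f7, E2f8 and Rbl1 at a similar level. Without a spread between lines, the order of the 5 ratios, 0.44 apart at most, cannot be tested.

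**Figure D2:**
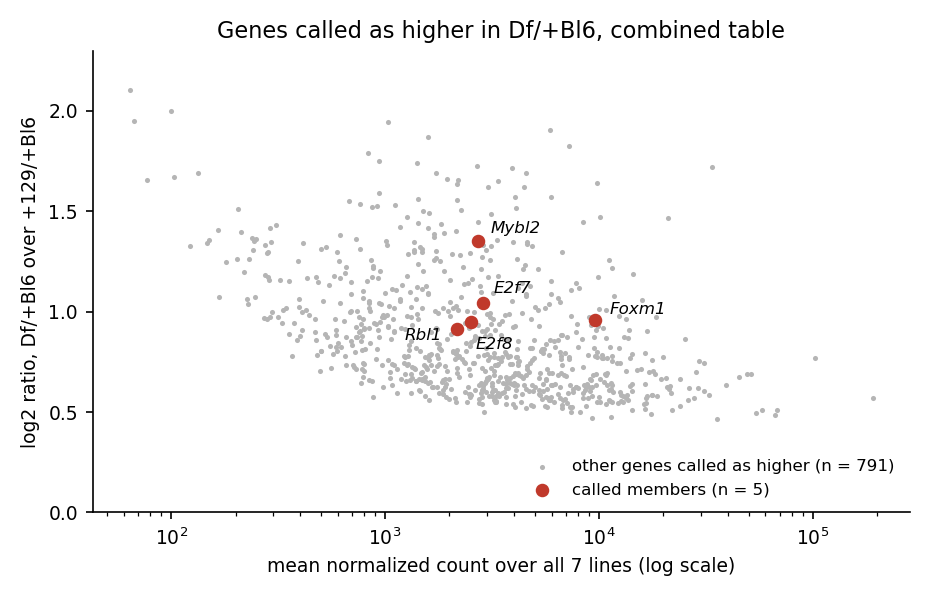
Log2 ratio of Df/+Bl6 over +129/+Bl6 (y axis) against the mean normalized count over all 7 lines (x axis, log scale) for the 796 genes called as higher in the combined comparison. The 5 called members (red) lie inside the cloud of the other 791 genes (grey), with Mybl2 at 1.35 and the other members between 0.91 and 1.04.

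Longer transcripts collect more reads, so levels were also compared per kb of the longest coding transcript in GENCODE vM1. On this scale of mean normalized counts per kb, Foxm1 was highest in controls with 1412. E2f8 followed with 446, Mybl2 with 396, E2f7 with 328 and Rbl1 with 297. In Df/+Bl6 MEFs the order was Foxm1 (2745), Mybl2 (1011), E2f8 (862), E2f7 (676) and Rbl1 (558), so that Mybl2 and E2f8 changed places. Neighbours in these orders other than Foxm1 lie close together, and whether they differ beyond the spread of lines could not be examined.

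The genotypes were also compared by allele, from reads that the authors assigned to a strain by alignment. Mybl2 and Foxm1 are the 2 members called for single alleles, and both were called for both alleles and in the same direction. How many genes were tested per allele is not known, and the shares are taken of the 15531 genes above. For the 129S5 allele 1.65% of them were called, 0.863% as higher and 0.792% as lower. For the C57BL/6J allele 2.10% were called, 1.17% as higher and 0.934% as lower. For the 129S5 allele, the mean of Mybl2 was 159 in +129/+Bl6 and 421 in Df/+Bl6 MEFs, a log2 ratio of 1.41. For its C57BL/6J allele the means were 283 and 704, a log2 ratio of 1.31. Foxm1 had 129S5 means of 400 and 778 (log2 ratio 0.96) and C57BL/6J means of 421 and 833 (log2 ratio 0.99). The 129S5 ratio minus the C57BL/6J ratio was 0.10 for Mybl2 and -0.03 for Foxm1. Over the 178 genes outside the deletion that are called for both alleles, the quartiles of these differences were -0.10 and 0.08. Genes called for a single allele are left out of that set, so the spread over all genes may be wider. Each table had its own normalization, for which reason ratios and not levels are compared between alleles. In the C57BL/6J table, the deleted genes Park7, Acot7 and Vamp3 had Df/+Bl6 means of 43.8%, 57.3% and 65.4% of control. That allele is intact in Df/+Bl6, and Errfi1 and Rpl22 were not called for it. Whether the C57BL/6J values come from that allele alone was not tested. This limit also holds for the C57BL/6J ratios of Mybl2 and Foxm1. E2f7, E2f8 and Rbl1 were called for neither allele, and whether they were tested there is not listed.

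**Figure D3:**
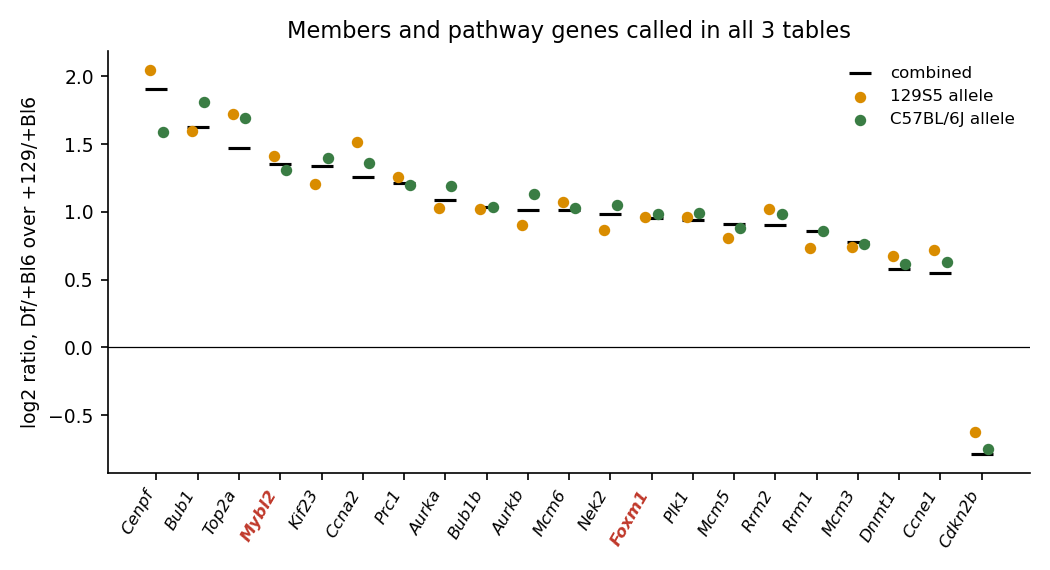
Log2 ratio of Df/+Bl6 over +129/+Bl6 (y axis) in the combined (black dashes), 129S5 allele (orange) and C57BL/6J allele (green) tables for the 21 members and pathway genes called in all 3. The members Mybl2 and Foxm1 (red labels) have ratios of 1.31 to 1.41 and of 0.96 to 0.99, and Cdkn2b is the single gene below 0.

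The partners of the members include the DP, MuvB and Myb families and cyclin A. Like the regulators and targets below, they were chosen with earlier results of these data known, so the counts describe these genes alone. Of 12 partners tested, 4 were higher in Df/+Bl6 (33.3%, against 5.13% of all genes), 0 lower and 8 not called. Lin9, a MuvB subunit, went from 814 in +129/+Bl6 to 1999 in Df/+Bl6 MEFs (log2 ratio 1.30). Lin54, the subunit that contacts the CHR, had a log2 ratio of 0.83. Mybl1 encodes A-MYB, a relative of B-MYB, and its log2 ratio was 0.61. Ccna2, which encodes the cyclin of S and G2 phase, went from 6202 to 14820 (log2 ratio 1.26). The genes not called were E2f4, E2f5, E2f6, Tfdp1, Tfdp2, Lin37, Lin52 and Rbbp4, which include both DP partner genes and the E2F genes that act with RBL1 and RBL2.

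Genes that act on the pocket proteins went both ways. Of 16 regulators, 15 were tested, 3 were called as higher (against 5.13% of all genes), 3 as lower (against 3.54% of all genes) and 9 were not called. The genes that rose promote the cell cycle. Ccne2, for a cyclin E that activates CDK2, went from 983 to 3054 (log2 ratio 1.64). Skp2, whose product targets the inhibitor p27 for degradation, went from 1968 to 3921 (0.99), and Ccne1, the other cyclin E gene, from 4876 to 7140 (0.55). The genes that fell encode kinase inhibitors. Cdkn2b (p15) went from 16891 in +129/+Bl6 to 9814 in Df/+Bl6 MEFs, a log2 ratio of -0.78. Cdkn2a, for p16 and ARF, had a log2 ratio of -0.70 and Cdkn1a (p21) one of -0.67. Relative to the median log2 ratio of called genes (0.61), 2 of these 6 lay above and 4 below. The D cyclins Ccnd1, Ccnd2 and Ccnd3 and the kinases Cdk4, Cdk6 and Cdk2 were not called, nor were the inhibitor genes Cdkn1b (p27), Cdkn1c and Cdkn2c.

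Almost all of the targets rose, in lists that were likewise chosen with earlier results of these data known. Of 24 E2F targets of the G1/S transition, 23 were higher in Df/+Bl6 (95.8%, against 5.13% of all genes) and 0 lower, with a median log2 ratio of 0.90. The 3 largest ratios were those of Ccne2 (1.64), the checkpoint kinase gene Chek1 (1.53) and Pola1 (1.49), for the catalytic subunit of DNA polymerase alpha. The smallest were those of Ccne1 (0.55) and Dnmt1 (0.58), for the maintenance DNA methyltransferase. Ccne1 and Ccne2 are the same genes as among the regulators above. Cdt1, for an origin licensing factor, was the 1 gene not called, and it is named after its result was seen. Of 24 targets of FOXM1 and B-MYB-MuvB in G2/M, 23 were likewise higher and 0 lower, with a median of 1.08. Cenpf, for a kinetochore protein, went from 2283 to 8564 (log2 ratio 1.91). It was followed by the checkpoint kinase gene Bub1 (1.62) and the topoisomerase gene Top2a (1.47). Cdc20, for an activator of the anaphase-promoting complex, had the smallest ratio (0.60), and Ube2c, for an enzyme that works with that complex, had 0.86. Cdc25b was the 1 gene not called, again named after its result was seen. The median log2 ratio of the called members, 0.96, lay between the medians of these lists.

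**Figure D4:**
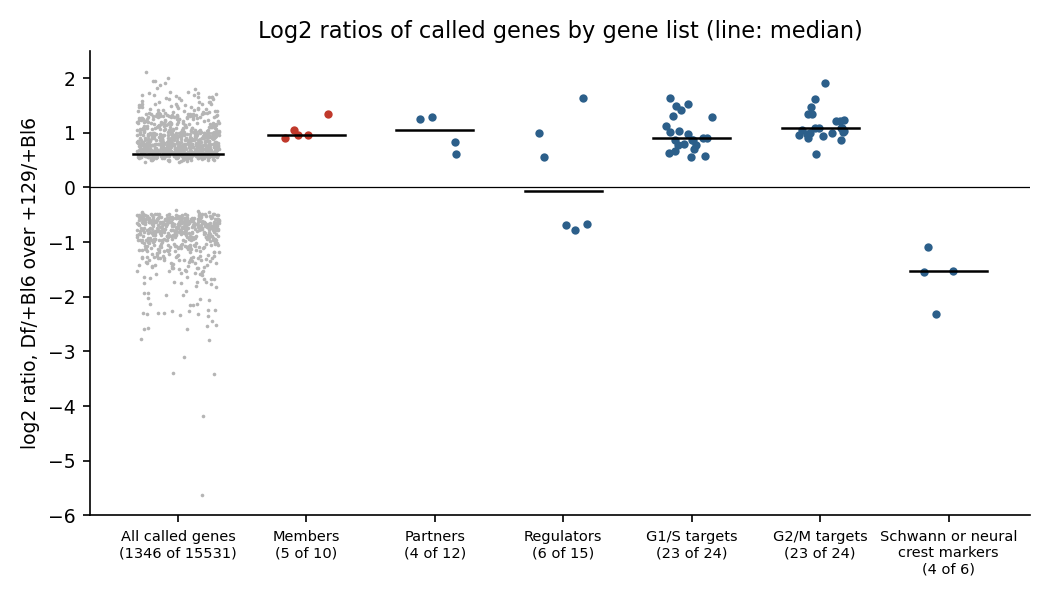
Log2 ratio of Df/+Bl6 over +129/+Bl6 (y axis) for all called genes of the combined comparison (grey) and by gene list, with the number called and tested in brackets and the median as a line. Members (red) and both target lists lie above 0 throughout, regulators lie on both sides, and the 4 called Schwann or neural crest markers lie between -2.32 and -1.09.

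The promoters of the target lists held both kinds of letters, in shares that were not tested against each other. An 8-letter E2F site was in 13 of the 21 G1/S targets with a RefSeq window and in 1 of the 20 G2/M targets, compared with 2.60% of all genes. The CHR was in 3 of the 21 G1/S targets and in 16 of the 20 G2/M targets, compared with 21.7% of all genes. The core GCGGGA was in 14 of the 21 and in 11 of the 20, compared with 22.05% of all genes. Of the called members, Rbl1 and E2f7 held the E2F site without a CHR, and E2f8 held the CHR without the 8-letter site. Of the members not called, Rbl2 held the CHR without the 8-letter site, and E2f1 held neither. E2f3 held both in the same window, while E2f2 held them in separate windows. Pola1 (chrX:93632256-93632335, minus strand, positions -180 to -101) and Top2a (chr11:99024190-99024269, minus strand, the last 80 bases before the start) stand here for the lists, with the 8-letter site GCGCCAAA and cores in capitals in the first and the CHR in the second. The Pola1 stretch lies inside the RefSeq span of its gene, which ends at 93632387. The Top2a stretch lies partly inside that of its gene, which ends at 99024199.
Pola1: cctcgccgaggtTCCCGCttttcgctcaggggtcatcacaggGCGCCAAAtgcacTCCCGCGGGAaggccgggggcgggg
Top2a: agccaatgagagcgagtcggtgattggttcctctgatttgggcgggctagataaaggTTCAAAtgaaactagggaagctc

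Some markers of another cell type were called as lower, the opposite direction to the called members. This marker list was also chosen with earlier results of these data known. Of 6 Schwann or neural crest markers, 4 (Sox10, Foxd3, Erbb3 and S100b) were lower in Df/+Bl6, compared with 3.54% of all genes, and 2 were not called. The means of these 4 added up to 1340.1 in +129/+Bl6 and to 409 in Df/+Bl6 MEFs, and none was at 0 in either. None of the tested markers of skeletal muscle (7), macrophages (7), endothelium (6) or epithelium (5) was called, compared with 8.67% of all genes, and no mean is at hand for those. The part of such cells in the ratios of the members was not tested. In RNA from whole cultures, a smaller share of cells of a kind and less RNA per cell cannot be told apart, which holds for cycling cells as well.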

How the data were processed

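The authors aligned stranded paired-end polyA+ reads with GSNAP, without mismatches, to C57BL/6J (GRCm38/mm10) and 129S5/SvEvBrd transcriptomes, and compared 4 Df/+Bl6 with 3 +129/+Bl6 lines with DESeq. The deposited signal values are mean normalized counts per genotype, for both alleles together and for each allele, of genes past an FDR of 0.05. The authors' fold change, p and adjusted p columns were not used, and log2 ratios were computed from the means. In a further deposited file, 9 value columns carry no name and could not be tied to the 7 lines. They were left out, so members that were not called have no level, and the planned tests between lines and the naming of genes with a like pattern could not be run. Its identifiers were taken as the list of tested genes. All 1346 called genes of the combined comparison are among them, and 1 called gene of each allele comparison is not. The deposited columns baseMeanA and baseMeanB were read as Df/+Bl6 and +129/+Bl6, since the overall mean weights them by 4 and 3.

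Symbols came from GENCODE vM1 (138 of the 139 genes looked up matched) and positions from RefSeq GRCm38.p6. The members and gene lists were chosen with earlier results of these data known. All members and all called partners and regulators were named, and of each target list the 3 largest and the 2 smallest log2 ratios. A further Schwann or neural crest marker is not reported here, so counts for that list cover its other genes. Calculations were tested on simulated data. Alternatives were pseudocounts of 1 and 100, scaling to the sum or the median of the table, a log2 ratio of at least 1, and a mean of at least 1000. Python 3.11.15, numpy 2.4.6, pandas 2.3.3 and matplotlib 3.10.9 were used.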

Additional observations from a re-analysis of the deposited data

How the results depend on the processing

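With a log2 ratio of at least 1 required, 2 of the 5 called members were left (Mybl2 and E2f7). Of the genes called as higher in the 4 pathway lists together, 27 of 51 were left under this limit, with 2 of 4 partners, 1 of 3 regulators, 9 of 23 G1/S targets and 16 of 23 G2/M targets. Ccne1 and Ccne2 are in both the regulator and the G1/S list and count once in the total. Centring on the median of called genes, which lowers every log2 ratio by 0.61, turned Ccne1 (-0.0574), Dnmt1 (-0.0297) and Cdc20 (-0.0053). This median is not a level of no change, since 796 of the called genes were higher and 550 lower, and the median of all tested genes is not known. The log2 ratios of the called members stayed above 0 under the pseudocounts and scalings, from 0.31 (centred) to 1.62 (scaled to the sum) in the combined table and from 0.30 to 1.41 for the alleles. A pseudocount added to both means cannot change the sign of a ratio. The sum covers called genes alone and was lower in Df/+Bl6, so scaling to it raised every log2 ratio, by 0.27. Centring was therefore the single scaling that could have turned a member. A mean of at least 1000 left all 5 called members. Leaving out each line in turn was not run because no value per line was used. No paired analysis was possible because the result comes from pooled means and the labels name each line by a number of its own.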
